A study of Sus scrofa with 9 samples.

Results

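Vitamin-C is a cofactor of the 2-oxoglutarate dioxygenases, and the 46 genes described here encode enzymes of this family other than the TET methylcytosine dioxygenases. They were taken from a list of gene symbols, and the rule used no measured value, but the list was chosen with earlier results of these data known. Of the 46 listed genes, 45 were present in both tables of exonic 5-hydroxymethylcytosine (5hmC), which hold 18933 and 18992 genes and share 18752. EGLN2, a HIF prolyl hydroxylase, was found in neither table and was not analysed here. The 45 genes were divided by role into 17 histone demethylases and their JmjC relatives, 3 HIF hydroxylases, 9 collagen hydroxylases, 9 AlkB enzymes with FTO, and 7 other hydroxylases.

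Mesenchymal stem/stromal cells (MSCs) were grown from the abdominal subcutaneous fat of female domestic pigs, 3 months old when the diets began, and their 5hmC was measured by immunoprecipitation of sonicated DNA with an anti-5hmC antibody and sequencing (hMeDIP-seq). Lean-MSCs came from pigs on standard chow and Obese-MSCs from pigs given a high-fat/high-fructose diet, in each case for 16 weeks, and neither received added vitamin-C. The growth medium of all groups contained some, as ascorbic acid phosphate, so untreated cells were not free of it. Untreated and vitamin-C-treated Obese-MSCs were both cells of the Obese diet grown on from the third passage. The treated cells were exposed to 50 μg/mL vitamin-C for 48 h. Each group held 3 libraries, numbered 7 to 9 for Lean, 1 to 3 for untreated Obese and 4 to 6 for treated Obese. The cells were expanded in culture from tissue, so the values describe cultured cells and not cells in the fat.

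These enzymes hold an iron atom, use oxygen and 2-oxoglutarate as co-substrates, and insert a hydroxyl group into a protein, nucleic acid or small molecule; where the hydroxylated group is a methyl group on nitrogen, it leaves as formaldehyde. Ascorbate returns the iron to the reduced state in which it can bind oxygen, and scurvy is the classic sign of collagen hydroxylases short of it. In stromal cells the family stabilises and crosslinks collagen, marks HIF subunits for degradation in oxygen, removes methyl groups from histones and repairs or edits nucleic acids.

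The values are exonic 5hmC signal per gene, as normalized counts. They are not divided by exon length, so levels were compared between groups for the same gene and never between genes, and they measure a DNA mark and not expression of the enzyme. The 6 libraries of Obese- and Lean-MSCs were normalized in one table, with totals of 494566 to 522269, and the 6 treated and untreated Obese libraries in another, with totals of 547242 to 593846. The 45 genes took 0.285% to 0.345% of a library's total. Both tables hold the untreated Obese libraries, and the family's median gene read 1.10 to 1.13 times higher in the second, so each comparison stays in its own table and the comparisons are not independent of each other. Sequencing depth in reads is not given by normalized values, so no counting interval was made. Normalization brings the library totals of a table close together, so a change in 5hmC shared by all genes would not appear. The values therefore compare a gene with the rest of its library, and not the absolute amount of 5hmC. Being a DNA mark, the values do not check the cell type: PTPRC, a leukocyte marker that MSCs lack, still averaged 47.0 ± 10.0 in the Obese libraries (SD, n = 3). Of 3 MSC markers (NT5E, THY1, ENG) and 3 that MSCs lack (CD14, CD34, PTPRC), 0 met the study's criteria in either comparison, and CD14 was listed at 0 in all Lean libraries.

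The first comparison asked whether the diet was accompanied by a different normalized 5hmC level over these genes. Most of them did not separate Obese- from Lean-MSCs. By the study's criteria, which ask for a per-gene p-value of 0.05 or less and a mean in one group 1.4 times the other or more (high), or 0.7 times or less (low), 0 of 45 genes were higher and 2 were lower in Obese-MSCs: KDM7A, a histone demethylase, and PLOD2, a collagen lysyl hydroxylase. Recomputed here on the deposited values, these criteria called 2.07% of all genes high and 2.43% low and 0% and 4.44% of the family, so that 1 gene fewer would have put the family's low calls near the background. The median log2 ratio over the 45 genes was -0.06, with 17 genes higher and 28 lower by their means, beside a median of 0.01 over all genes with a ratio.

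PLOD2 hydroxylates lysines at the ends of collagen chains, from which the more stable crosslinks of stiff and fibrotic matrix form, and lies at chr13:86402673-86513167 of Sscrofa11.1. It read 28.0, 26.5 and 29.4 normalized counts in the 3 Obese libraries. The Lean libraries read 55.1, 43.7 and 35.0. All Obese values were below all Lean values, the Obese libraries lay close together and the Lean libraries did not. The means were 28.0 ± 1.43 and 44.6 ± 10.1 (SD, n = 3 each), a ratio of 0.627 and a log2 ratio of -0.67. The p-value of the study's criteria was 0.0477, and the two-sided exact permutation p was 0.1, the smallest that 3 against 3 libraries allow. Leaving out each library in turn moved the log2 ratio between -0.82 and -0.49, and PLOD2 then met the criteria only without Lean library 9.

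KDM7A encodes a demethylase of repressive methyl marks on histone H3 and lies at chr18:9581468-9664750. Its Obese libraries read 19.4, 15.1 and 24.5 normalized counts. Its Lean libraries read 26.1, 27.8 and 31.8. The groups did not overlap, but the highest Obese and the lowest Lean library differed by less than the spread within Obese-MSCs. The means were 19.7 ± 4.69 and 28.6 ± 2.94 (SD, n = 3 each), a ratio of 0.688 and a log2 ratio of -0.54. The p-value of the criteria was 0.0494, with an exact permutation p of 0.1. With 1 library left out at a time the log2 ratio ran from -0.73 to -0.38, and the criteria were met only without untreated Obese library 3.

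limma, fitted to log2(value + 1) over 15146 genes with adjustment over all of them, called 0 of the 43 genes of the family that passed its filter on low values, as it did 0 of all genes (0%). The smallest adjusted p in the family was 0.697, for PLOD2, and the family's smallest ran from 0.577 to 0.961 across the settings tried. At an unadjusted limma p of 0.05, 3 of 43 genes were called (6.98%), all lower in Obese-MSCs, beside 6.81% of all genes. They were PLOD2 at 0.0251, OGFOD1 at 0.0318 and ASPH at 0.0493, with limma adjusted values of 0.697, 0.704 and 0.733. ALKBH6 and ALKBH7 were below the filter.

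**Figure D1:**
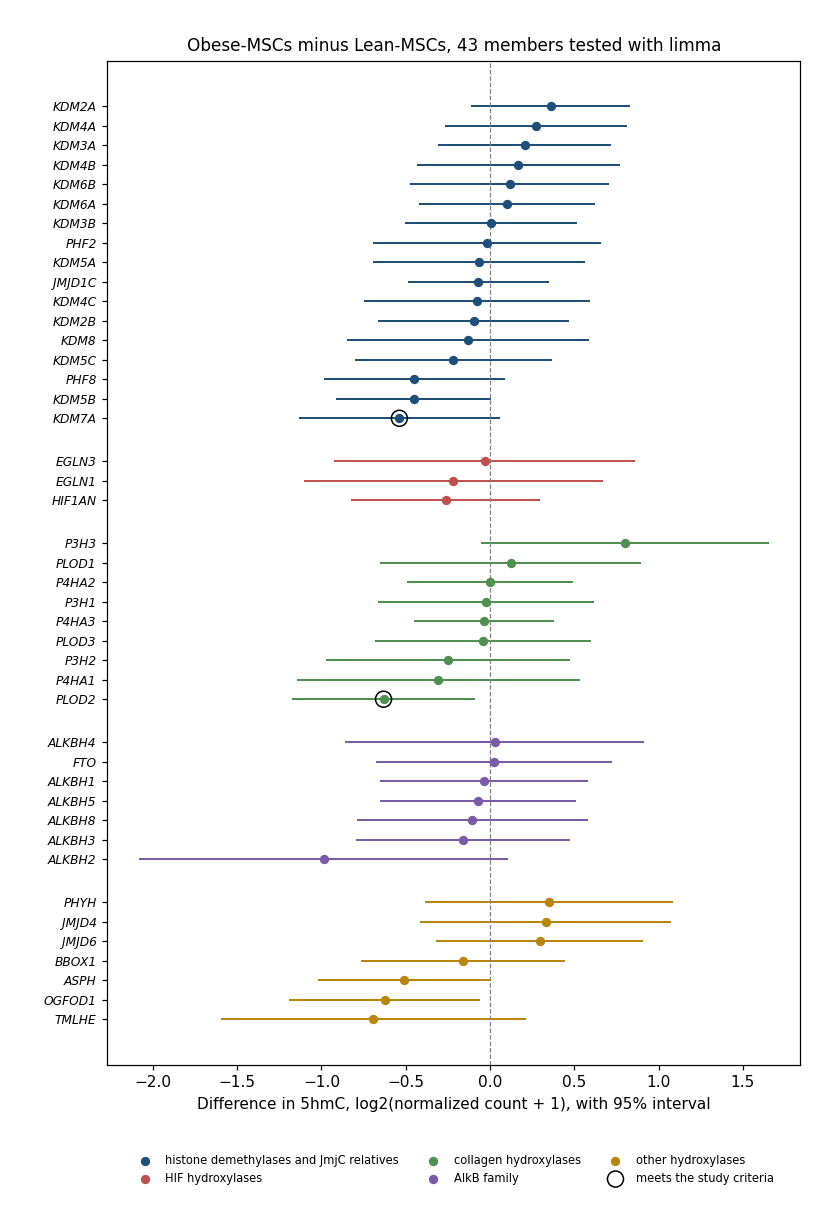
Difference in exonic 5hmC between Obese- and Lean-MSCs for the 43 tested genes of the family, grouped by role. The horizontal axis is the limma difference in log2(normalized count + 1), points are estimates from 3 against 3 libraries, bars are 95% intervals, and rings mark KDM7A and PLOD2, which met the study's criteria. The intervals of 40 genes cross 0 and those of PLOD2, OGFOD1 and ASPH lie below it.

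The width of the intervals says what could have been missed. The 95% limma interval reached a median of 0.61 to either side of the estimate on the log2 scale, from 0.41 for P4HA3 to 1.10 for ALKBH2. It held 0 for 40 of 43 genes. The interval reached a 1.4-fold higher level in Obese-MSCs for 27 genes and a 0.7-fold level for 29, and it stayed inside both bounds for only 2 of the 43. A gene that was not called was therefore not shown to be alike in the diets.

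Separation of the groups, whatever the size of the difference, was about as frequent in the family as in all genes. All 3 Obese values lay above all 3 Lean values for 3 genes (6.67%, beside 5.70% of all genes), and below them for 3 genes (6.67%, beside 6.06%). The higher genes were KDM2A, KDM3A and P3H3, and the lower ones KDM5B, KDM7A and PLOD2. KDM3A and KDM5B are named here because their groups were seen to separate.

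The 17 histone demethylases and JmjC relatives remove methyl groups from histone lysines or resemble enzymes that do. By their means 7 were higher and 10 lower in Obese-MSCs. Their median log2 ratio was -0.09, with a range from -0.54 for KDM7A to 0.36 for KDM2A. KDM2A, a demethylase whose zinc finger binds unmethylated CpG, read 66.9, 63.5 and 67.1 normalized counts in Obese-MSCs and 54.2, 55.6 and 44.2 in Lean-MSCs. The groups were apart, but the ratio of 1.28 was under the fold threshold (p-value of the criteria 0.0185, exact permutation p = 0.1). KDM3A, which acts on a repressive lysine of histone H3, averaged 40.6 ± 4.34 in Obese- and 34.9 ± 1.10 in Lean-MSCs (SD, n = 3 each). KDM5B, which removes a methyl mark of active promoters, averaged 73.7 ± 12.6 and 101 ± 18 (SD, n = 3 each), a log2 ratio of -0.46 that missed both criteria.

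The remaining histone enzymes overlapped between diets. KDM2B, a paralog of KDM2A, averaged 27.5 ± 5.03 in Obese- and 29.4 ± 4.13 in Lean-MSCs (SD, n = 3 each). For KDM6A and KDM6B, demethylases of the Polycomb mark, the log2 ratios were of 0.11 and 0.15. PHF8, an X-linked demethylase, averaged 52.8 ± 19.4 and 69.8 ± 6.51 (SD, n = 3 each), with 1 Obese library at 74.6 among the Lean values. KDM4A, which demethylates trimethylated histone H3, read 117, 146 and 63.1 in the Obese and 91.5, 76.4 and 87.3 in the Lean libraries, so that Obese library 3 lay below every Lean library and the other two above.

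The HIF hydroxylases mark the alpha subunits of hypoxia-inducible factor for degradation (EGLN1 and EGLN3) or block their partner binding (HIF1AN). None of the 3 met the criteria. HIF1AN read 30.9, 29.3 and 44.4 normalized counts in Obese- and 48.5, 45.7 and 31.9 in Lean-MSCs, with 1 library of each group among the values of the other and a log2 ratio of -0.27. EGLN1, the main oxygen-sensing prolyl hydroxylase, averaged 5.26 ± 0.899 and 6.30 ± 1.18 (SD, n = 3 each), a log2 ratio of -0.26. EGLN3, itself a hypoxia-induced gene, read 4.35, 6.61 and 13.7 in Obese- and 8.99, 7.94 and 6.18 in Lean-MSCs. Its log2 ratio of 0.10 turned to -0.49 without Obese library 3.

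The collagen hydroxylases comprise the catalytic subunits of prolyl 4-hydroxylase (P4HA1 to P4HA3), the lysyl hydroxylases (PLOD1 to PLOD3) and the prolyl 3-hydroxylases (P3H1 to P3H3). Their 9 genes had a median log2 ratio of -0.02, with 3 higher and 6 lower in Obese-MSCs, and PLOD2 and P3H3 stood at the ends of the range. P3H3, which has been tied to collagen lysine hydroxylation as well, lies at chr5:63871506-63885294 and read 8.42, 7.54 and 13.9 in Obese- and 4.57, 6.96 and 4.12 in Lean-MSCs. The Obese libraries were all higher, by a ratio of 1.91 and a log2 ratio of 0.93, but the difference missed the study's threshold (p-value of the criteria 0.0945, exact permutation p = 0.1) and the limma one (adjusted p = 0.762). Without 1 library the log2 ratio of P3H3 lay between 0.61 and 1.19. The other 2 lysyl hydroxylases stayed close to no difference, at log2 ratios of 0.06 for PLOD1 and -0.06 for PLOD3, and P4HA2 and P4HA3 at 0.00 and -0.02.

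**Figure D2:**
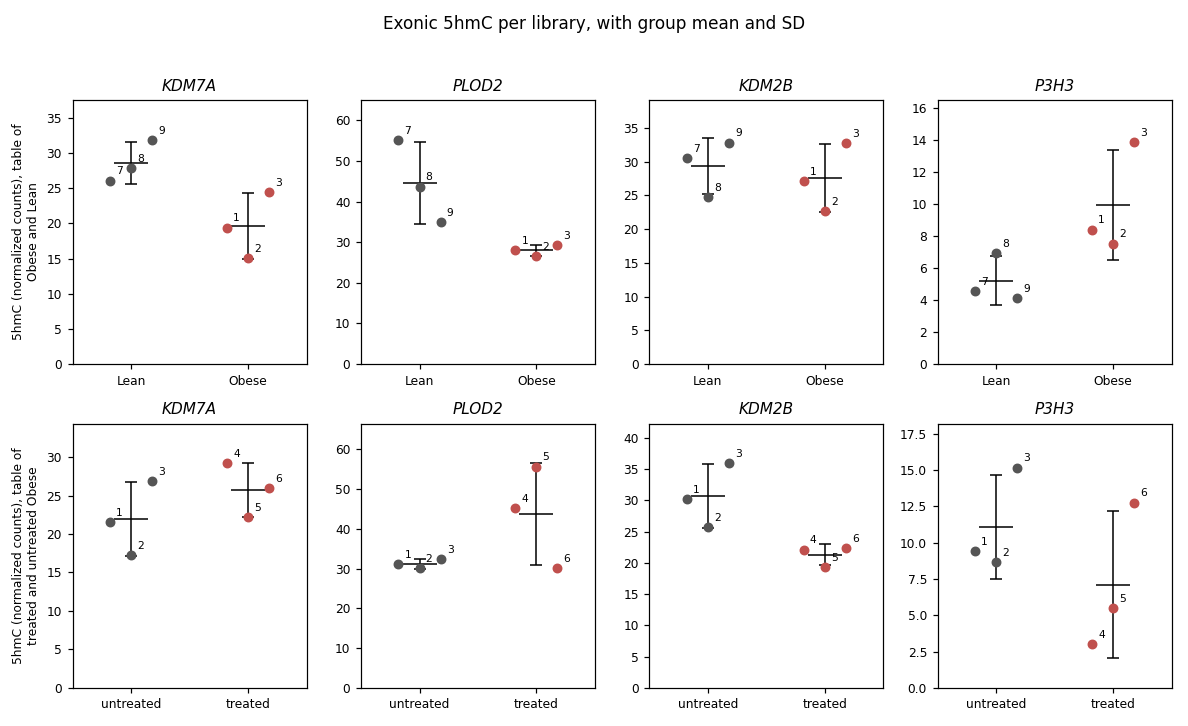
Exonic 5hmC in each library for KDM7A, PLOD2, KDM2B and P3H3, as normalized counts on a linear vertical axis from 0. Points are libraries with their numbers, horizontal bars are group means and whiskers SD (n = 3), with Obese and Lean above and treated and untreated Obese below. KDM7A and PLOD2 lie apart between diets, KDM2B between treated and untreated cells, and P3H3 lies apart between diets with a log2 ratio of 0.93.

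The AlkB enzymes reverse alkylation of DNA and RNA (ALKBH2 and ALKBH3), remove the N6-methyl mark of adenosine in RNA (FTO and ALKBH5) or modify tRNA (ALKBH1 and ALKBH8). None of the 9 met the criteria or was apart between diets, and their median log2 ratio was -0.03. FTO averaged 14.5 ± 2.45 in Obese- and 14.7 ± 4.70 in Lean-MSCs, and ALKBH5 25.3 ± 3.95 and 26.7 ± 4.65 (SD, n = 3 each). The ends of the range were genes of few normalized counts. ALKBH2 read 3.92, 0.899 and 5.72 in Obese- and 7.88, 7.95 and 5.16 in Lean-MSCs, a log2 ratio of -0.99 with 1 Obese library inside the Lean range. ALKBH6 read 5.50, 0.882 and 8.0 in Obese- and 3.30, 1.99 and 0.0109 in Lean-MSCs. Its groups overlapped, and its Lean mean lay below 3 normalized counts, the floor under which a group mean was treated as low.

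Of the 7 other hydroxylases, 3 were higher and 4 lower in Obese-MSCs, with a median log2 ratio of -0.16. TMLHE, which starts carnitine synthesis, read 5.44, 6.66 and 3.66 in Obese- and 11.2, 4.95 and 12.3 in Lean-MSCs, a log2 ratio of -0.85 with Lean library 8 among the Obese values. JMJD4, a lysyl hydroxylase of a translation release factor, read 16.6, 12.3 and 8.48 and 11.2, 7.94 and 9.25, a log2 ratio of 0.40 with overlapping groups. OGFOD1, a prolyl hydroxylase of a ribosomal protein, averaged 29.4 ± 6.67 and 46.0 ± 10.3 (SD, n = 3 each), with 1 Obese library at 37.1 above the lowest Lean library at 36.0. ASPH, which hydroxylates EGF-like domains, averaged 47.8 ± 12.1 and 67.5 ± 8.0 (SD, n = 3 each). OGFOD1 and ASPH are named here because of their unadjusted limma p. BBOX1, which ends carnitine synthesis, had a log2 ratio of -0.16, and PHYH, which hydroxylates phytanoyl-CoA in peroxisomes, of 0.18. For PHYH that value rested on single Lean libraries: it was 0.84 without Lean library 7, where PHYH met the criteria as high, and -0.14 without Lean library 8.

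The second comparison asked whether 48 h of vitamin-C was accompanied by a different normalized 5hmC level over the genes of the enzymes that use it. The paper cites earlier work of its authors in which vitamin-C raised global 5hmC in swine Obese-MSCs. A rise common to all genes would not be seen in these values. Almost none of the genes separated treated from untreated cells. By the study's criteria 0 of 45 genes were higher after treatment (1.11% of all genes) and 1 was lower (2.22%, beside 0.806% of all genes), the histone demethylase KDM2B. The median log2 ratio was 0.07 over the 44 genes with a ratio, 25 of them higher and 19 lower, beside 0.01 over all genes. That median turned to -0.05 without treated library 4.

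KDM2B demethylates histone H3 and brings a Polycomb complex to unmethylated CpG islands through its zinc finger. It lies at chr14:31057121-31203093, where its annotated span overlaps that of RNF34. Exons were not compared, so it is not known whether any counted reads fall in both genes. The treated libraries read 22.1, 19.4 and 22.4 normalized counts. The untreated libraries read 30.2, 25.8 and 36.0. All treated values were below all untreated ones, and the treated libraries lay within a narrow range. The means were 21.3 ± 1.66 and 30.7 ± 5.10 (SD, n = 3 each), a ratio of 0.695 and a log2 ratio of -0.53. The p-value of the criteria was 0.039 and the exact permutation p 0.1, while limma gave an unadjusted p of 0.101 and an adjusted p of 1. The log2 ratio ran from -0.64 to -0.40 with 1 library left out, and of these 6 settings only the one without untreated library 2 kept the call. The same gene did not separate between diets in the other table, at a log2 ratio of -0.09.

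limma called 0 of the 44 genes tested after adjustment over 15194 genes, and 0 of all genes (0%), with adjusted p of 1 throughout the family. At an unadjusted limma p of 0.05 it called 0 of 44, beside 0.974% of all genes. The 95% interval held 0 for all 44 genes and reached a median of 0.66 to either side, from 0.46 for JMJD1C to 1.63 for ALKBH6. It reached a 1.4-fold higher level for 37 genes and a 0.7-fold level for 27, and stayed inside both bounds for 1. Treated and untreated libraries were apart in 1 gene upwards (P4HA1, 2.22%, beside 3.24% of all genes) and 1 downwards (KDM2B, 2.22%, beside 2.67%).

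**Figure D3:**
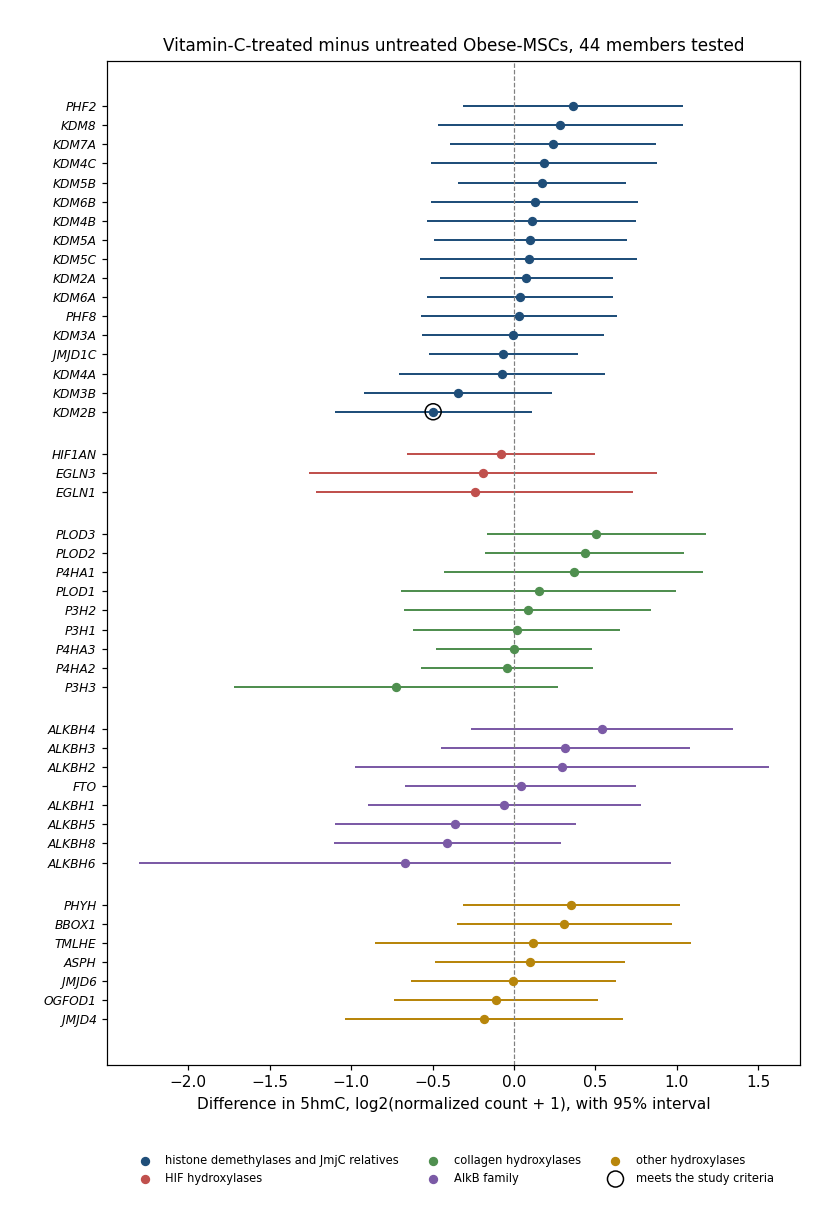
Exonic 5hmC of vitamin-C-treated minus untreated Obese-MSCs for the 44 tested genes, grouped by role, as limma differences in log2(normalized count + 1) with 95% intervals from 3 against 3 libraries. The ring marks KDM2B, which met the study's criteria. All 44 intervals cross 0, and the widest, of ALKBH6, reaches 1.63 to either side.

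After treatment 12 of the 17 histone demethylases and relatives were higher and 5 lower by their means, with a median log2 ratio of 0.11. PHF2, a demethylase related to KDM7A, had the highest, with 20.1, 18.4 and 32.4 normalized counts in treated and 15.5, 17.2 and 20.5 in untreated cells. Only treated library 6 was clear of the untreated range, and the log2 ratio of 0.42 fell to 0.12 without it. KDM7A, lower in Obese- than in Lean-MSCs, read 29.2, 22.2 and 26 in treated and 21.6, 17.2 and 26.9 in untreated cells, a log2 ratio of 0.23 with overlap. KDM2A averaged 79.2 ± 21.6 and 73.3 ± 1.28 (SD, n = 3 each), with the treated libraries spread from 61.4 to 103. KDM6A and KDM6B had log2 ratios of 0.04 and 0.12.

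All 3 HIF hydroxylases had lower means after treatment, by small amounts and with overlapping groups. HIF1AN read 33.2, 38.9 and 36.7 in treated and 34.5, 33.3 and 48.7 in untreated cells, a log2 ratio of -0.10 that turned to 0.10 without untreated library 3. EGLN1 read 4.03, 3.66 and 7.25 and 6.96, 5.38 and 5.27, a log2 ratio of -0.24. EGLN3 read 5.04, 4.53 and 15.5 and 5.01, 7.55 and 14.9, with 1 high library in each group.

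Of the collagen hydroxylases, 5 were higher and 4 lower after treatment and 0 met the criteria. PLOD2 read 45.3, 55.7 and 30.2 in treated cells. It read 31.1, 30.1 and 32.3 in untreated cells. Treated libraries 4 and 5 were above every untreated library and treated library 6 was among them, so that the log2 ratio of 0.49 went with an exact permutation p of 0.3. Its 95% limma interval ran from -0.18 to 1.05. Without treated library 6 its log2 ratio was 0.70 and it met the criteria as high. PLOD3, a lysyl hydroxylase that also glycosylates collagen, read 16.1, 26.9 and 28.8 against 16.4, 16.1 and 15.6, the highest log2 ratio of the class at 0.58, with 1 treated library within the untreated values. Without that library, number 4, PLOD3 met the criteria. P3H3 read 3.03, 5.51 and 12.8 against 9.43, 8.64 and 15.2, a log2 ratio of -0.64 with overlap that ran from -1.38 without treated library 6 to -0.28 without treated library 4. P4HA1 averaged 10.3 ± 0.368 in treated and 8.0 ± 2.24 in untreated cells (SD, n = 3 each), with a ratio of 1.29 under the fold threshold. It is named here because its groups were seen to separate. P4HA1 overlaps NUDT13 in the annotation.

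None of the AlkB enzymes was called or apart after treatment. ALKBH4, which demethylates actin, read 15.1, 13.9 and 14.3 in treated and 10.4, 14.9 and 5.58 in untreated cells, a log2 ratio of 0.49. ALKBH6 ended the range at -0.65, with treated library 4 near 0 (0.00433) and the other treated values at 4.66 and 5.46 beside 6.08, 1.16 and 8.69 untreated. FTO averaged 17.1 ± 4.99 and 16.2 ± 2.81, and ALKBH5 23.4 ± 11.3 and 28.2 ± 3.98 (SD, n = 3 each). ALKBH7 was under the floor in both groups and has no ratio. Of the 7 other hydroxylases, PHYH read 48.3, 57.6 and 25.7 against 34.6, 29.0 and 33.6 (log2 ratio 0.44) and JMJD4 read 16.1, 6.35 and 15.3 against 18.3, 14.0 and 9.43 (log2 ratio -0.14). Both overlapped between the groups, and PHYH met the criteria as high without treated library 6, at 0.71.

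Replicates of one group differed more for some genes of the family than the groups did. In untreated Obese-MSCs 7 of 44 genes had a highest library at least 2-fold over the lowest, namely KDM4A, EGLN3, ALKBH1, ALKBH2, ALKBH3, ALKBH4 and ALKBH6. The number was 5 of 44 in Lean- and 12 of 44 in treated Obese-MSCs. The same count over all genes was not made, so these numbers have no background. Ranked by residual SD, the family as a whole was not more variable than other genes. Its median stood at percentile 36.8 of all tested genes in the diet comparison and 36.2 in the treatment comparison. Genes were not matched by level in this ranking. The AlkB class had the widest median residual SD of the 5 classes, 0.53 and 0.61 on the log2 scale beside 0.38 and 0.40 over all genes. This is a description of a class in which ALKBH2 and ALKBH6 lie near the floor, and ALKBH6 was not tested between diets. In the diet comparison ALKBH1 and ALKBH3, with higher counts, had residual SDs of 0.53 and 0.62. ALKBH5, ALKBH8 and FTO had lower ones there, of 0.24, 0.37 and 0.38.

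ALKBH1 and ALKBH3 lay well above the floor and still varied several-fold across the Obese libraries. They are named here, with KDM4A, because of that spread. ALKBH1 read 103, 70.8 and 38.5 in untreated libraries 1 to 3 and 98.6, 76.9 and 32.8 in treated libraries 4 to 6. ALKBH3, a repair enzyme for alkylated single-stranded DNA and RNA, read 87.9, 178 and 56.7 untreated and 111, 182 and 85.7 treated. In both genes the range within a group was wider than the difference between the means, with log2 ratios of -0.03 and 0.23 that leave aside any pairing of the libraries. The annotation has ALKBH3 overlap ACCSL.

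**Figure D4:**
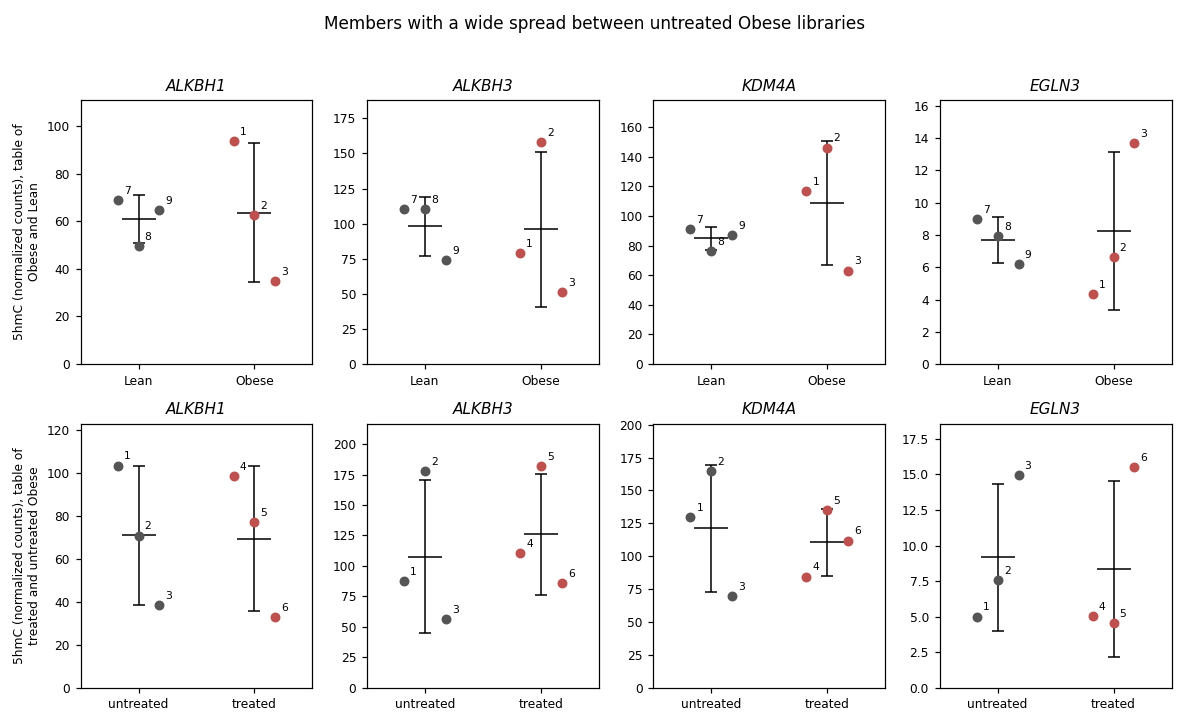
Exonic 5hmC in each library for ALKBH1, ALKBH3, KDM4A and EGLN3, as normalized counts on a linear vertical axis from 0. Points are libraries with their numbers, horizontal bars are group means and whiskers SD (n = 3), with Obese and Lean above and treated and untreated Obese below. The groups overlap in all 8 panels, and untreated ALKBH3 runs from 56.7 to 178.

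By position, the 45 genes lay on 14 chromosomes of Sscrofa11.1, with 8 on chromosome 2, 6 each on chromosomes 6 and 14, 5 on chromosome 3 and 4 on chromosome X. The X-linked genes were KDM5C, KDM6A, PHF8 and TMLHE, and the closest neighbours were KDM5C and PHF8, 645 kb apart. Of the 45 genes, 10 overlap another coding gene of the tables, among them KDM2B, P4HA1, ALKBH2, ALKBH3, PLOD3 and ASPH. None of KDM7A, PLOD2 and P3H3 does.

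Genes that work with the family were read in the same way, in lists also chosen with earlier results of these data known. Of 15 further 2-oxoglutarate dioxygenases, 13 were in the tables and 1 was called high between diets (7.69%, beside 2.07% of all genes), ASPHD2, a relative of ASPH. The Obese values were all higher in 2 of the 13 (15.4%, beside 5.70%). It read 15.6, 15.2 and 13.1 in Obese- and 4.64, 5.95 and 10.2 in Lean-MSCs, all Obese values higher, with a log2 ratio of 1.07 (p-value of the criteria 0.0147, exact permutation p = 0.1, limma adjusted p = 0.668). In the same list 9 genes were higher and 2 lower by their means, with a median log2 ratio of 0.46 over the 11 above the floor. None of the 8 collagen modification partners, the 9 genes of the HIF axis, the 8 writers and readers of RNA adenosine methylation or the 6 genes of the carnitine route was called between diets, at median log2 ratios of 0.16, -0.01, 0.01 and 0.31. In 2 of the 8 collagen modification partners all Obese values were higher (25.0%, beside 5.70% of all genes). After vitamin-C 0 genes of these 5 lists met the criteria, and their median log2 ratios were -0.11 for the further dioxygenases, 0.01, 0.07, 0.04 and -0.11. METTL14, a subunit of the RNA adenosine methyltransferase, came nearest and was apart between groups, with 9.05, 6.49 and 2.56 in treated and 11.2, 13.9 and 10.5 in untreated cells (log2 ratio -0.98, p-value of the criteria 0.0537, exact permutation p = 0.1, limma adjusted p = 1). COLGALT2, a collagen modification partner, was also apart and lower (log2 ratio -0.61, p-value of the criteria 0.0604). Each was 1 gene of 8 in its list (12.5%, beside 2.67% of all genes apart and lower).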

How the data were processed

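The authors aligned hMeDIP-seq reads to susScr 11.1, counted reads over exons per gene and normalized the counts; the deposited values are therefore used as a signal, in normalized counts, with no count model. The submitters' processing notes name Bowtie2 2.3.3.1, Picard 1.67, HTSeq 0.9.1, bedtools 2.20.0, HOMER 4.10, MACS2, DiffBind 2.14.0 and edgeR 3.28.1. Of the deposited values, 645 below 1e-06 in the second table were set to 0.

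The members and lists were chosen with earlier results of these data known. Values were compared by the study's criteria (p-value of 0.05, ratio of 1.4 or 0.7), by the two-sided exact permutation test over 20 arrangements, and by limma 3.58.1 (R 4.3.3) with trend on log2(value + 1) over the upper 80% of genes by mean with Benjamini-Hochberg adjustment. Scripts ran in Python 3.11.15 with numpy 2.4.6, pandas 2.3.3 and scipy 1.17.1 and were tested on simulated data. Genes were given library by library if they met the criteria, if their groups were apart with a ratio of 1.4 or 0.7, or if they ended the range of their class; others are marked as chosen on their values. No ratio was formed where both group means were 3 or less. Library numbers are not shared between groups, and the labels do not tie a library to an animal, so p-values measure the spread between these libraries. Gene positions are from RefSeq, Sscrofa11.1. Alternatives were the threshold, fold, scale, filter, pseudocount, rescaling and leaving out each library.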

Additional observations from a re-analysis of the deposited data

How the results depend on the processing

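The calls by the study's criteria were few and sat at their thresholds. Between diets the 2 calls became 0 at a p-value threshold of 0.01 or a fold of 2 or 0.5, and 1 (PLOD2) with the test on the log2 scale, with size factors and with quantile normalization. Leaving out each library gave 1 to 3 calls, with KDM7A among them only without untreated Obese library 3 and PLOD2 only without Lean library 9. After vitamin-C the 1 call became 0 at 0.01, at a fold of 2 or 0.5 and with quantile normalization, and 0 to 2 with a library left out, KDM2B among them only without untreated library 2. The family's median log2 ratio ran from -0.11 to 0.03 between diets, turning sign without Lean library 8, and from -0.05 to 0.12 after vitamin-C. limma called 0 members in every setting run. For the 16 members named by rule, 9 alternatives gave 144 single ratios in each comparison, all within the spread between replicates. Leaving out 1 of 3 libraries can move a group mean by only a part of its SD, so those settings could hardly fall outside. Some ratios changed sign. After vitamin-C, ALKBH2 went from 0.29 to -0.32 and TMLHE from 0.18 to -0.24 without treated library 4. Members named on their values were not included. With 3 libraries a group and no read depth known, small differences could not be detected.

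No label pairs a treated with an untreated culture, and library numbers are not shared between groups. As an alternative chosen after seeing the data, each of the 6 possible matchings of treated and untreated libraries was entered as a block, and limma called 0 members under each, adjusted or at an unadjusted p of 0.05.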

Other observations

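Some treated and untreated Obese libraries deviated from their group means alike. Deviations from the group means, correlated across 15194 genes, which are not independent replicates, gave r = 0.26 for treated 4 with untreated 1, 0.34 for treated 5 with untreated 2 and 0.15 for treated 6 with untreated 3. The other 6 combinations gave -0.23 to -0.03. For each gene the deviations within a group sum to 0, so values below 0 follow in part from the positive ones. The contrast between combinations is therefore no separate sign of pairing. Over the 44 members the same 3 combinations gave 0.13, 0.15 and 0.36, but treated 4 with untreated 2 gave 0.24. Of the genes with a 2-fold spread in untreated Obese-MSCs, ALKBH1 and ALKBH3 had the same order in both groups. ALKBH1 read 103, 70.8 and 38.5 in untreated 1 to 3 and 98.6, 76.9 and 32.8 in treated 4 to 6. The order of KDM4A, EGLN3, ALKBH2, ALKBH4 and ALKBH6 differed between the groups. KDM4A read 130, 165 and 69.6 untreated and 84.5, 135 and 112 treated. The paper describes Obese-MSCs of the third passage grown on either without or with vitamin-C, so cultures may share a pig. The sources used here do not say which do, and the main tests of treatment used no pairing. Set side by side in these 3 combinations, 5 of 45 members were higher after vitamin-C in all 3 (beside 10.9% of all genes) and 4 of 45 lower (beside 11.2%). KDM4C, KDM5A, PHF2, P4HA1 and ALKBH3 were higher in all 3, and KDM2B, KDM3B, P3H3 and P4HA2 were lower in all 3. The combinations were picked from these same values, which by itself can lower the p-values of a fit that uses them as a block. In that fit the smallest unadjusted limma p in the family was 0.0652 for KDM2B, with ALKBH3 at 0.0691. PLOD2 followed at 0.0844, P3H3 at 0.0896, PLOD3 at 0.0965 and KDM3B at 0.112, and the adjusted p was 1 for each.

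PHYHD1, a relative of PHYH outside the 46 genes and singled out after its values were seen, read 54.4, 74.1 and 35.9 in Obese- and 26.1, 29.8 and 26.7 in Lean-MSCs. All Obese values were higher, with a log2 ratio of 0.99, yet it missed the study's criteria at 0.0702 (exact permutation p = 0.1) and limma's adjusted p was 0.668.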
